A study of Mus musculus with 19 samples.

Results

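The comparison described here is that of Has2+/- mice with WT mice without allergen, over all genes of the deposited count table. Its members are the 9 libraries of lungs treated with saline, 4 from Has2+/- mice and 5 from WT mice, of 19 libraries in all, picked by the genotype and treatment that the labels and column names give. The Has2+/- animals carry 1 deficient copy of the hyaluronan synthase gene Has2 in every tissue from conception, on a Balb/c background made by at least 8 generations of backcrossing, and the WT animals are Balb/c littermates with both copies. All were female, entered the protocol at 6 to 8 weeks of age, and received saline by injection and then into the nose on 5 days of each of 8 weeks. The other 10 libraries come from 5 Has2+/- and 5 WT mice of the same strain that were sensitized to and challenged with the allergen ovalbumin (OVA) on the same schedule, and they serve here only to show how the same genes stood between the genotypes in other mice. The material is homogenate of the whole lung, 1 library to a sample, so the measured levels are those of all lung cells mixed. Libraries are named by the running number of their column, 6 to 9 for Has2+/- saline, 1 to 5 for WT saline, 15 to 19 for Has2+/- OVA and 10 to 14 for WT OVA.

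Hyaluronan is a long unbranched sugar polymer of the extracellular matrix. It is made at the plasma membrane by the synthases Has1, Has2 and Has3, held by proteins such as the receptor CD44 and the inter-alpha-trypsin inhibitor heavy chains, and broken down by hyaluronidases and by Cemip. Has2 is the synthase known for long chains and is needed for heart development, so that mice without any Has2 die as embryos and only heterozygotes can be studied as adults. Saline-treated heterozygotes give the effect of the genotype in lungs that saw no allergen, and so the baseline against which an effect of allergen in the same genotype is read.

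The 4 Has2+/- libraries held 4446534 to 7048676 counts (median 5684849.5) and the 5 WT libraries 4879142 to 6424220 (median 5480516). Genes that mark alveolar, airway and endothelial cells were high in all 9. Surfactant gene Sftpc stood at 6151 to 8962 CPM in Has2+/- libraries and 8794 to 10084 CPM in WT libraries, and the endothelial gene Pecam1 at 687 to 1311 CPM in Has2+/- libraries and 1017 to 1220.4 CPM in WT libraries, where CPM are counts scaled to a common library size with the TMM factor of each library. Defining markers of neighbouring tissue were near 0 for thymus (Rag1 and Ptcra at 0 in every library, Dntt at most 1.599 CPM) and, of squamous epithelium, for Krt4 and Krt13 (at most 0.435 CPM), while Krt5 of basal and squamous cells stood at 1.599 to 3.56 CPM in Has2+/- libraries and 0.593 to 2.52 CPM in WT libraries. Some libraries stood apart. The summed CPM of a skeletal muscle list was 1687 in Has2+/- library 7 and 389 in WT library 5, against 58.3 to 68.9 in the other 7. Genes of the circadian clock divided the Has2+/- libraries, with libraries 6 and 7 at one end and 8 and 9 at the other end of their first principal component (-3.43 and -4.04, against 3.75 and 3.15) and the 5 WT libraries between them (-1.50 to 2.04). Scgb1a1 of airway club cells was 18137 CPM in Has2+/- library 9, against 7846 to 9234 CPM in the other 3 Has2+/- libraries and 8253 to 9409 CPM in WT libraries.

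Reads of Has2 itself numbered 3, 7, 2 and 7 in Has2+/- libraries, against 2, 3, 1, 3 and 4 in WT libraries. The gene lies at chr15:56665627-56694539 of mm10. Its means were 0.901 ± 0.603 CPM in Has2+/- lungs (SD, n = 4) and 0.469 ± 0.185 CPM in WT lungs (SD, n = 5), and the groups overlapped (exact permutation test, two-sided, p = 0.254, where 4 against 5 libraries can reach 0.0159). With 1 to 7 reads a library, the level was not seen to be lower in Has2+/- lungs, so Has2 gives no check of the genotype labels. The part of the low depth in this was not tested. By PCR the study reported no effect of genotype on Has2 mRNA in saline controls. Has3, the synthase known for shorter chains, had 27.2, 24.9, 23.2 and 26.5 CPM in Has2+/- lungs, against 23.1, 28.2, 20.8, 28.5 and 21.9 CPM in WT lungs (log2 fold change 0.06, SE 0.12, unadjusted p = 0.637). Has1, the third synthase, had 5.09, 7.301, 8.36 and 8.69 CPM in Has2+/- lungs, against 6.05, 8.46, 5.54, 4.57 and 6.62 CPM in WT lungs (log2 fold change 0.22, SE 0.21, unadjusted p = 0.312). For both genes the groups overlapped, and the difference was smaller than the spread between libraries.

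Receptors and signal molecules tied to hyaluronan also overlapped between the genotypes. Cd44, the main hyaluronan receptor, had 139, 159.7, 166 and 195 CPM in Has2+/- lungs, against 168, 224, 167, 144 and 160.1 CPM in WT lungs (log2 fold change -0.07, SE 0.12, unadjusted p = 0.572). Tlr4, a pattern receptor reported to sense hyaluronan fragments, had 30.4, 42.7, 28.2 and 34.6 CPM in Has2+/- lungs, against 33.004, 38.8, 33.02, 32.4 and 39.1 CPM in WT lungs (log2 fold change -0.06, SE 0.12, unadjusted p = 0.609). Tgfb1, a growth factor of matrix deposition, had 103, 73.9, 113 and 93.9 CPM in Has2+/- lungs, against 109, 109, 108, 107 and 96.9 CPM in WT lungs (log2 fold change -0.14, SE 0.10, unadjusted p = 0.161). The signs of Has1, Has3, Cd44, Tlr4 and Tgfb1 each turned under at least 1 other processing.

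In a list of 42 genes of hyaluronan synthesis, breakdown and binding that are in the table, 30 passed the filter on low counts, 15 of these had a log2 fold change above 0 and 15 below, and the median was 0.00. Over all 14495 genes tested, 51.4% were above 0. Of the 30, 3 were higher at an unadjusted p under 0.05 (3.88% of all genes tested) and 0 were lower (3.06%), and 0 passed the adjusted test. These 3 were Cemip, which depolymerizes hyaluronan, and Itih5 and Itih3, heavy chains that bind it. Cemip had 1.16, 2.06, 3.01 and 2.83 CPM in Has2+/- lungs, against 0.733, 0.882, 0.791, 1.25 and 1.58 CPM in WT lungs (log2 fold change 1.06, SE 0.38, unadjusted p = 0.0106, edgeR's adjusted p = 0.639). Its Has2+/- library 6 lay among the WT libraries and the other 3 lay above all of them.
Itih5 had 22.1, 24.7, 14.4 and 24.8 CPM in Has2+/- lungs, against 17.4, 16.4, 15.4, 15.6 and 17.2 CPM in WT lungs (log2 fold change 0.38, SE 0.15, unadjusted p = 0.0218). Itih3 had 1.89, 2.25, 1.504 and 4.13 CPM in Has2+/- lungs, against 1.1001, 1.59, 0.989, 1.66 and 1.42 CPM in WT lungs (log2 fold change 0.80, SE 0.34, unadjusted p = 0.02903). In both, Has2+/- libraries 6, 7 and 9 were above every WT library, while library 8 was below the WT range for Itih5 and inside it for Itih3. The fat marker genes Adipoq and Fabp4 also had libraries 6, 7 and 9 above every WT library. In a model of the 9 saline libraries with the mean of a fat cell list as a covariate the log2 fold change of Itih5 was 0.02, and the median of the 27 hyaluronan genes it tested was -0.16 with 22 below 0. The sum of that list was itself above every WT library in Has2+/- libraries 6, 7 and 9, so this model cannot separate it from genotype. The part of fat in the Itih5 and Itih3 differences was not tested. Tlr2, the list's next gene by p, had a log2 fold change of -0.31 (unadjusted p = 0.0535).

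edgeR called 0 of 14495 genes between Has2+/- and WT saline lungs (0% by the cutoffs of the study's methods, which ask for an adjusted p below 0.01 with a change of more than 1.2-fold, and 0% at an adjusted p under 0.05). At an unadjusted p under 0.05 there were 1006 genes (6.94%), 562 higher and 444 lower in Has2+/- lungs. In 246 genes (1.7%) the 4 Has2+/- and 5 WT libraries did not overlap, with Has2+/- above in 0.869% and below in 0.828% of all genes. DESeq2 on the same genes called 1. Over all genes, log2 fold changes had a median size of 0.10. The smallest adjusted p was 0.076, that of Psca, and the next was 0.419, shared by every other gene named for its rank. Genes are therefore described by their values, and none but Psca came near the threshold. Of the 25 genes of smallest p, 17 had the higher mean in Has2+/- lungs and 8 the lower. Their groups did not overlap in 14, 9 above and 5 below, which the choice by p favours. The number of genes at an unadjusted p under 0.05 was 1577 without Has2+/- library 6, against 1006 with it.

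Psca encodes a small GPI-anchored surface protein of the Ly6 superfamily, first described as a stem cell antigen of the prostate and found on several epithelia. Its reads numbered 37, 26, 27 and 20 in Has2+/- libraries, against 0, 0, 0, 0 and 0 in WT libraries. That is 4.78 ± 0.456 CPM in Has2+/- lungs (SD, n = 4), and at least 43.5-fold higher than in WT lungs if the WT group is set to a floor of 3 counts over its 5 libraries (0.110 CPM). The fitted log2 fold change of 7.74 depends on the prior count and is no bound. Every Has2+/- library was above every WT library. edgeR's adjusted p was 0.076, and the exact permutation test of the CPM gave p = 0.0159, the smallest that 4 against 5 libraries allow. With the 9 saline libraries alone edgeR's adjusted p was 0.0047, with no filter 0.0086, and DESeq2 gave 3.32e-07, so the call depended on the fit. It was the only gene called by these 3.

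**Figure D1:**
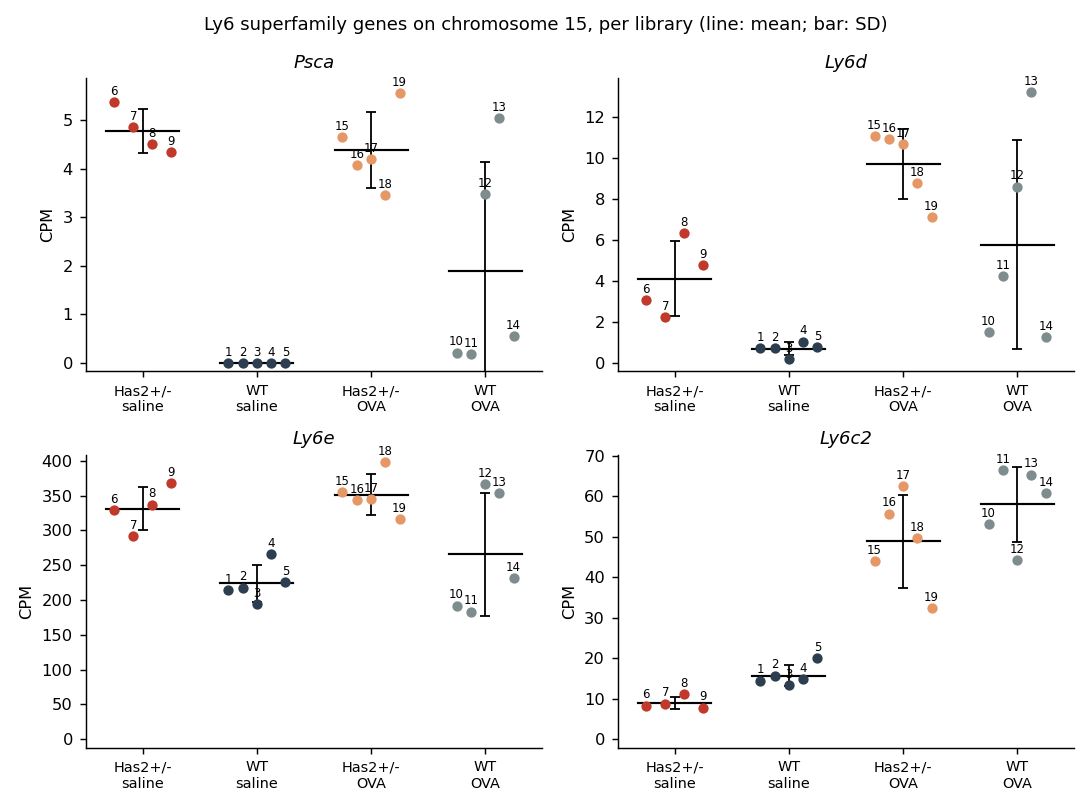
CPM of Psca, Ly6d, Ly6e and Ly6c2 in each library (numbers) of the Has2+/- saline, WT saline, Has2+/- OVA and WT OVA groups, with the mean as a line and the SD as a bar. Psca was at 0 in the 5 WT saline libraries and at 4.35 to 5.38 CPM in the 4 Has2+/- saline libraries, and WT OVA libraries 12 and 13 were the 2 highest of their group for Psca, Ly6d and Ly6e.

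Psca lies at chr15:74714839-74717069 of mm10, on the chromosome of Has2 and 18.02 Mb from it, at the edge of the Ly6 cluster. The Ly6 genes of this cluster encode small surface proteins held by a GPI anchor, used as markers of blood cell and endothelial subsets. Ly6d, 47.2 kb from Psca between starts and known from lymphoid progenitors and stratified epithelia, had 21, 12, 38 and 22 reads in Has2+/- libraries, against 4, 4, 1, 5 and 5 reads in WT libraries (log2 fold change 2.52, SE 0.64, edgeR's adjusted p = 0.419). Ly6e, an interferon-inducible member, had 329, 292, 337 and 368 CPM in Has2+/- lungs, against 215, 218, 194, 266 and 226 CPM in WT lungs (log2 fold change 0.57, SE 0.16, unadjusted p = 0.00249, edgeR's adjusted p = 0.546). Ly6c2, carried by inflammatory monocytes and some T cells, had 8.29, 8.799, 11.2 and 7.82 CPM in Has2+/- lungs, against 14.5, 15.7, 13.4, 14.7 and 20.01 CPM in WT lungs (log2 fold change -0.80, SE 0.20, unadjusted p = 0.000562). The squamous epithelium list, which includes Ly6d, had a summed CPM of 9.74, 10.7, 13.9 and 11.3 in Has2+/- libraries. In WT libraries the sum was 9.17, 5.99, 2.77, 4.78 and 6.46. Ly6d itself gave 3.05, 2.25, 6.35 and 4.78 CPM of this sum in Has2+/- libraries. In WT libraries it gave 0.733, 0.705, 0.198, 1.04 and 0.788 CPM. The sum is therefore not independent of Ly6d, and the part of such cells was not tested. None of the genes Ly6d, Ly6e and Ly6c2 overlapped between the genotypes, Ly6d and Ly6e with Has2+/- above and Ly6c2 with Has2+/- below.

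Between Psca and Ly6c2, with 100 kb on either side, 14 genes were tested, and 6 of them had an unadjusted p under 0.05 (6.94% of all genes), 3 higher (Psca, Ly6d, Ly6e) and 3 lower (Ly6c2, Lynx1, 2010109I03Rik). Both ends of this stretch were set by genes of small p, which favours that count. Lynx1, a Ly6-type modulator of nicotinic receptors, had 19.04, 22.1, 22.4 and 26.3 CPM in Has2+/- lungs, against 29.7, 30.9, 29.3, 22.6 and 27.4 CPM in WT lungs (log2 fold change -0.32, SE 0.11, unadjusted p = 0.00605). Ly6a, the stem cell antigen Sca-1, had 162, 168, 132 and 114 CPM in Has2+/- lungs, against 161, 182, 155, 177 and 195 CPM in WT lungs (log2 fold change -0.27, SE 0.13, unadjusted p = 0.0547). Ly6c1 of endothelial cells had 134, 141, 83.4 and 60.4 CPM in Has2+/- lungs, against 108, 127, 121, 129 and 143 CPM in WT lungs (log2 fold change -0.26, SE 0.20, unadjusted p = 0.2205). Ly6a and Ly6c1 overlapped between the genotypes. Ly6c1 and Ly6c2 are near-identical copies, and reads may have been divided between them, which leaves both values uncertain. Among the 11 tested members of the Ly6 list on chromosome 15 the median was -0.17, and it stood at 0.00 without Has2+/- library 8 and at -0.28 without Has2+/- library 7.

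A backcrossed allele keeps some flanking DNA of the strain it was made in, and the part of such DNA in these differences was not tested. Of 562 genes tested on that chromosome, 50 (8.90%) had an unadjusted p under 0.05, against 6.94% over all genes, 9.24% on chromosome 10 and 8.21% on chromosome 9. By distance on the side of lower coordinates, the genes past that p were 4 of 18 within 10 Mb, 2 of 27 at 10 to 20 Mb, 5 of 35 at 20 to 30 Mb, 0 of 4 at 30 to 40 Mb, 1 of 36 at 40 to 50 Mb and 2 of 15 at 50 to 60 Mb. On the side of higher coordinates they were 3 of 31 within 10 Mb, 9 of 74 at 10 to 20 Mb, 17 of 155 at 20 to 30 Mb, 5 of 54 at 30 to 40 Mb and 2 of 113 at 40 to 50 Mb. These counts are a description, with no test, and they rest on unadjusted p.

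**Figure D2:**
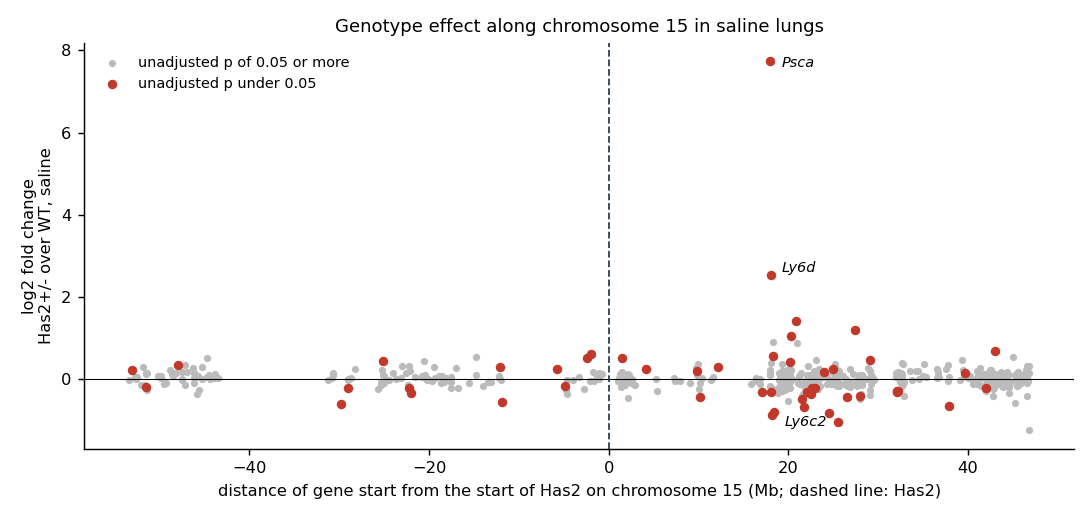
Log2 fold change of Has2+/- over WT saline lungs for the 562 genes tested on chromosome 15, by distance of the gene from Has2 in Mb, with genes at an unadjusted p under 0.05 in red. Psca (7.74) and Ly6d (2.52) stand apart at about 18.02 Mb from Has2, and most genes lie near 0.

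The next genes by p are grouped here by role, or for the second group by pattern across libraries, a grouping made after their values were seen. The first group holds genes of cytotoxic lymphocytes. Prf1 encodes perforin, which opens pores in target cells. It had 9.16, 8.61, 12.7 and 8.69 CPM in Has2+/- lungs, against 18.7, 11.3, 19.8, 20.4 and 21.3 CPM in WT lungs (log2 fold change -0.89, SE 0.19, unadjusted p = 0.000125). WT library 2 was inside the Has2+/- range, and the other 4 WT libraries were above it. Ccl5, the chemokine RANTES of memory T and NK cells, had 7.56, 7.11, 12.7 and 9.35 CPM in Has2+/- lungs, against 15.95, 14.6, 12.7, 17.9 and 15.3 CPM in WT lungs (log2 fold change -0.73, SE 0.15, unadjusted p = 0.000107). Has2+/- library 8 stood level with WT library 3, and libraries 6, 7 and 9 were below every WT library. Il2rb, the receptor chain for interleukins 2 and 15 on NK and T cells, had 13.2, 12.7, 21.6 and 23.04 CPM in Has2+/- lungs, against 24.8, 31.2, 25.1, 30.1 and 29.5 CPM in WT lungs (log2 fold change -0.68, SE 0.15, unadjusted p = 0.000209). It lies on chromosome 15, 21.8 Mb from Has2, and in OVA lungs its log2 fold change was -0.28 (unadjusted p = 0.0599). In saline lungs it did not overlap. Gzmb, granzyme B, had 3.05, 2.81, 2.17 and 1.52 CPM in Has2+/- lungs, against 4.22, 3.702, 4.75, 5.82 and 5.83 CPM in WT lungs (log2 fold change -0.996, SE 0.29, unadjusted p = 0.002499) and did not overlap either. Klrd1, the NK receptor chain CD94, had 1.02, 2.06, 2.34 and 2.39 CPM in Has2+/- lungs, against 4.58, 1.76, 3.16, 3.95 and 5.67 CPM in WT lungs (log2 fold change -0.999, SE 0.35, unadjusted p = 0.00992), with WT library 2 inside the Has2+/- range. Tyrobp, the adaptor DAP12 of NK and myeloid cells, had 19.2, 18.5, 23.1 and 26.1 CPM in Has2+/- lungs, against 33.7, 35.3, 29.1, 26.8 and 25.7 CPM in WT lungs (log2 fold change -0.48, SE 0.12, unadjusted p = 0.000602), with Has2+/- library 9 between WT libraries 5 and 4.

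Of 37 tested genes of a T and NK cell list, 30 were below 0 and 7 above (48.6% of all genes tested were below 0), the median was -0.15, and 5 were lower at an unadjusted p under 0.05 (3.06% of all genes). The summed CPM was 646, 626, 743 and 619 CPM in Has2+/- libraries 6 to 9, against 717, 769, 788, 775 and 744 CPM in WT libraries 1 to 5. Library 8 was the one Has2+/- library inside the WT range. The list divided by library pair: without Has2+/- libraries 8 and 9 the median was -0.59 with 21 genes lower at that p, and without libraries 6 and 7 it was 0.19 with 4 higher and 4 lower. Leaving out 1 library moved the median most without Has2+/- library 6, to -0.03. In homogenate, fewer cells of a type and less RNA per cell cannot be told apart. In OVA lungs the median of this list was 0.17. Its summed CPM there was 702, 647, 629, 1012 and 589 in Has2+/- libraries 15 to 19. In WT OVA libraries 10 to 14 it was 744, 647, 661, 620 and 671. Only Has2+/- library 18 was above every WT OVA library, and no fit left it out.

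The second group was picked by its values, as genes of which Has2+/- library 8 lay within the WT range. Of these, 3 are in the fat cell list (Retn, Fabp4 and Adipoq) and 4 are not (Aoc3, Ephx2, Gpt2 and Tgm3). Library 8 also lay within the WT range for Prf1 and Ccl5 of the first group. Retn encodes resistin, a hormone of mouse fat cells, and had 16.9, 15.4, 3.17 and 14.998 CPM in Has2+/- lungs, against 2.2003, 4.58, 1.98, 2.08 and 2.21 CPM in WT lungs (log2 fold change 2.25, SE 0.47, unadjusted p = 0.000118). Fabp4, the fatty acid carrier of fat cells and some endothelial cells, had 124, 148, 18.7 and 83.2 CPM in Has2+/- lungs, against 30.99, 42.5, 17.2, 18.3 and 29.5 CPM in WT lungs (log2 fold change 1.75, SE 0.43, unadjusted p = 0.000608). Adipoq, which encodes the fat hormone adiponectin, had 36.3, 29.6, 5.35 and 23.7 CPM in Has2+/- lungs, against 6.601, 12.9, 5.34, 3.53 and 7.25 CPM in WT lungs (log2 fold change 1.72, SE 0.50, unadjusted p = 0.00248). In all 3, Has2+/- libraries 6, 7 and 9 were above every WT library and library 8 lay in the WT range. Aoc3, an amine oxidase of fat and smooth muscle cells, had 27.2, 25.1, 12.7 and 28.7 CPM in Has2+/- lungs, against 13.6, 14.8, 9.69, 13.3 and 14.5 CPM in WT lungs (log2 fold change 0.82, SE 0.20, unadjusted p = 0.000455). Ephx2, soluble epoxide hydrolase, had 14.5, 12.9, 3.68 and 6.96 CPM in Has2+/- lungs, against 4.58, 4.76, 2.37, 4.36 and 3.47 CPM in WT lungs (log2 fold change 1.29, SE 0.31, unadjusted p = 0.0004704). Both were also above every WT library in libraries 6, 7 and 9 and within the WT range in library 8. Gpt2, a mitochondrial alanine aminotransferase, had 24.7, 22.1, 14.9 and 21.3 CPM in Has2+/- lungs, against 13.02, 16.7, 14.8, 14.7 and 15.1 CPM in WT lungs (log2 fold change 0.48, SE 0.12, unadjusted p = 0.000764). Tgm3, a transglutaminase of keratinizing epithelium, had 11.3, 5.803, 0.334 and 3.04 CPM in Has2+/- lungs, against 1.1001, 1.94, 0.395, 0.208 and 0.473 CPM in WT lungs (log2 fold change 2.61, SE 0.64, unadjusted p = 0.000597). Has2+/- library 8 lay among the WT libraries for both genes too.

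Of 17 tested genes of the fat list, 16 were above 0 (51.4% of all genes) and 11 of these had an unadjusted p under 0.05 (3.88%), the median was 0.81, and 0 were lower at that p. The summed CPM was 1624, 1738, 657 and 1186 CPM in Has2+/- libraries 6 to 9, against 795, 984, 711, 679.9 and 812 CPM in WT libraries 1 to 5. Plin1, the coat protein of lipid droplets, had 36.8, 36.5, 10.2 and 44.8 CPM in Has2+/- lungs, against 13.4, 17.5, 7.71, 7.06 and 10.7 CPM in WT lungs. Cidea, another defining fat marker, had 2.04, 2.43, 1.504 and 3.48 CPM in Has2+/- lungs, against 2.2003, 0.882, 2.37, 0.831 and 0.473 CPM in WT lungs. Its Has2+/- libraries 6 and 8 lay inside the WT range. Ucp1, which defines brown fat, was at most 0.217 CPM in Has2+/- libraries and 0.917 CPM in WT library 1, and at 0 in 4 of the 9. Without Has2+/- libraries 6 and 7 the median was 0.39 with 3 genes higher and 2 lower at that p, and without libraries 8 and 9 it was 1.41 with 14 higher. In a model of the saline libraries with the mean of this list as a covariate, the log2 fold change of Tgm3, which is not in the list, was -0.51, and 0 genes were called. This model cannot separate the list from genotype, as Has2+/- libraries 6, 7 and 9 were above every WT library in its sum. How far fat attached to the sampled lung contributes was not tested. In OVA lungs the median of the list was -0.18, with 5 genes above and 12 below 0.

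**Figure D3:**
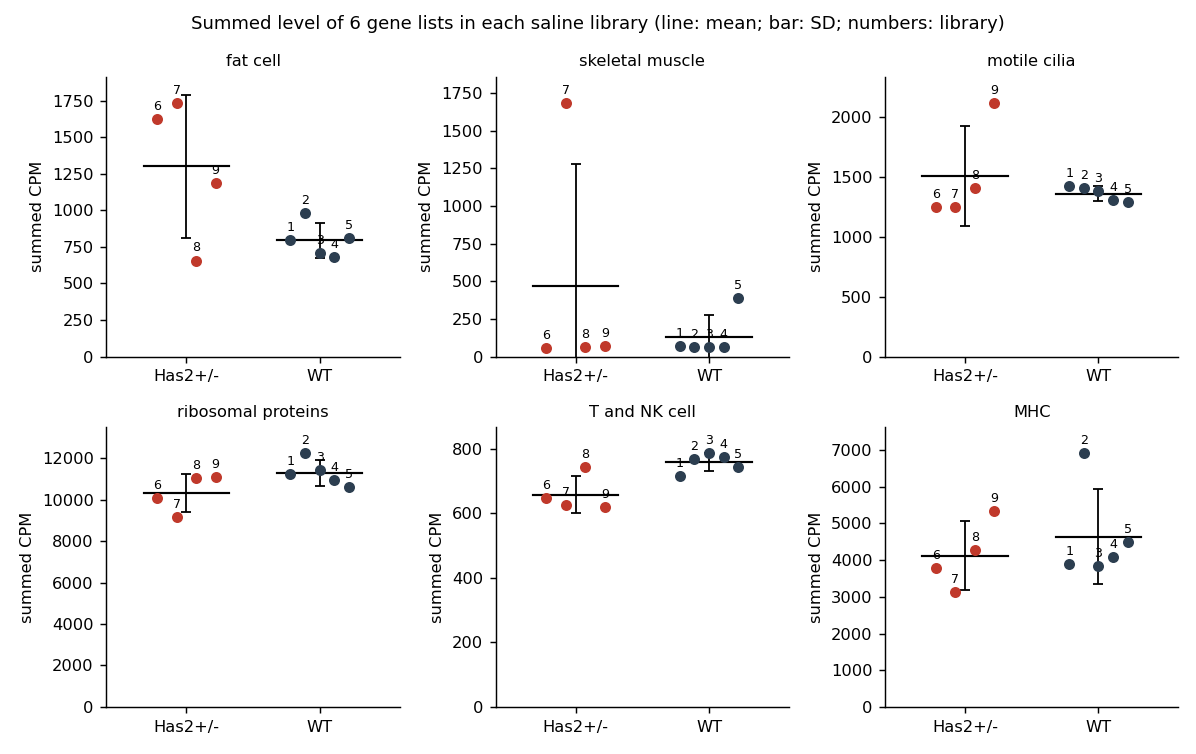
Summed CPM of 6 gene lists in each saline library (numbers), Has2+/- left of WT, with the mean as a line and the SD as a bar. Fat cell genes were above the WT range in Has2+/- libraries 6, 7 and 9, skeletal muscle genes stood out in libraries 7 and 5, motile cilia genes in library 9 and MHC genes in WT library 2.

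The third group acts in the nucleus on RNA, and all 4 genes had the higher mean in Has2+/- lungs. Zfc3h1, a subunit of the complex that hands polyadenylated nuclear RNA to the exosome, had 179, 213, 180.3 and 208 CPM in Has2+/- lungs, against 150.3, 145, 158, 171 and 163 CPM in WT lungs (log2 fold change 0.31, SE 0.07, unadjusted p = 0.000186). Ythdc1, the nuclear reader of methylated adenosine, had 108, 127, 109 and 124 CPM in Has2+/- lungs, against 96.8, 98.2, 100.2, 98.7 and 97.2 CPM in WT lungs (log2 fold change 0.25, SE 0.06, unadjusted p = 0.000583). Prpf4b, a kinase of the spliceosome, had 175, 212, 173 and 215 CPM in Has2+/- lungs, against 147, 156, 158, 170.1 and 163 CPM in WT lungs (log2 fold change 0.29, SE 0.07, unadjusted p = 0.000687). For these 3 genes every Has2+/- library was above every WT library. Luc7l3, a splicing factor of the U1 particle, had 159, 223, 182 and 229.8 CPM in Has2+/- lungs, against 149, 152, 148, 157 and 165 CPM in WT lungs (log2 fold change 0.36, SE 0.09, unadjusted p = 0.000768). Its Has2+/- library 6 was inside the WT range, and for all 4 genes libraries 7 and 9 were the highest.

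Jag1, Cdon, Fastkd1 and Zfp7 also had the higher mean in Has2+/- lungs. Jag1, a ligand of Notch, had 141, 125.8, 129.7 and 145 CPM in Has2+/- lungs, against 111, 112, 113, 98.5 and 116 CPM in WT lungs (log2 fold change 0.30, SE 0.07, unadjusted p = 0.000762). Cdon, a co-receptor of hedgehog ligands, had 36.05, 44.6, 39.8 and 51.1 CPM in Has2+/- lungs, against 35.9, 33.5, 31.04, 31.6 and 31.04 CPM in WT lungs (log2 fold change 0.39, SE 0.09, unadjusted p = 0.000498), with Has2+/- library 6 just above WT library 1. Fastkd1, a mitochondrial protein of a family that acts on mitochondrial RNA, had 15.3, 20.2, 16.04 and 16.95 CPM in Has2+/- lungs, against 11.9, 11.6, 10.3, 12.9 and 14.2 CPM in WT lungs (log2 fold change 0.48, SE 0.12, unadjusted p = 0.000699). Zfp7, a zinc finger protein whose gene lies on chromosome 15, 20.2 Mb from Has2, had a log2 fold change of 0.41 and overlapped. Jag1, Cdon and Fastkd1 did not overlap between the genotypes.

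Stbd1 and Adh1 had the lower mean in Has2+/- lungs, and neither overlapped. Stbd1, which tethers glycogen to membranes, had 39.97, 34.4, 30.9 and 31.5 CPM in Has2+/- lungs, against 49.7, 45.1, 63.3, 60.03 and 51.04 CPM in WT lungs (log2 fold change -0.65, SE 0.15, unadjusted p = 0.000232). Adh1, an alcohol dehydrogenase that also oxidizes retinol, had 74.9, 64.8, 62.3 and 46.5 CPM in Has2+/- lungs, against 87.3, 83.6, 95.1, 89.3 and 83.8 CPM in WT lungs (log2 fold change -0.49, SE 0.11, unadjusted p = 0.000335). Has2+/- library 9 was the lowest of the 9 for Adh1, and library 8 for Stbd1.

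Genes of ribosomal proteins, the protein part of the ribosome, stood slightly lower as a group in Has2+/- lungs. Of 79 tested, 76 were below 0 (48.6% of all genes) and 3 above, the median was -0.12, and 26 were lower (3.06% of all genes) and 0 higher at an unadjusted p under 0.05. In 10 of the 79 every Has2+/- library was below every WT library (0.828% of all genes). Rpl15 of the large subunit had 47.8, 45.7, 53.8 and 54.8 CPM in Has2+/- lungs, against 59.2, 67.2, 68.4, 56.7 and 58.1 CPM in WT lungs (log2 fold change -0.29, SE 0.07, unadjusted p = 0.0007501). Rps27 of the small subunit had 166, 164, 173 and 141 CPM in Has2+/- lungs, against 205, 197, 196, 199 and 176 CPM in WT lungs (log2 fold change -0.27, SE 0.07, unadjusted p = 0.00171). Both genes had all Has2+/- libraries below all WT libraries. Rpl37 had a log2 fold change of -0.20 and Rpl13 of -0.25. The summed CPM of the list was 10081, 9151, 11033 and 11084 CPM in Has2+/- libraries 6 to 9, against 11269, 12268, 11452, 10961 and 10611 CPM in WT libraries 1 to 5. Has2+/- libraries 8 and 9 lay inside the WT range of that sum, libraries 6 and 7 below it. Without Has2+/- library 7 alone the median was -0.07 with 12 lower at that p, and without WT library 2 it was -0.08 with 15 lower. Without libraries 8 and 9 the median was -0.24 with 50 genes lower at that p, and without libraries 6 and 7 it was -0.04 with 9 lower and 33 of 79 above 0. In OVA lungs 65 of the 79 were below 0, with a median of -0.07 and 6 lower at that p.

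Cell cycle genes and histone genes were mostly below 0. Of 39 cell cycle genes 36 were below 0 (median -0.19, 3 lower and 0 higher at an unadjusted p under 0.05), and of 50 histone cluster genes 47 (median -0.29, 2 lower). Of all genes tested 48.6% were below 0 and 3.06% lower at that p. E2f1, a transcription factor of entry into S phase, had 6.54, 4.87, 5.01 and 8.91 CPM in Has2+/- lungs, against 8.07, 11.6, 9.29, 9.76 and 9.92 CPM in WT lungs (log2 fold change -0.63, SE 0.18, unadjusted p = 0.00233). Mcm2, a subunit of the replicative helicase, had 19.3, 17.6, 25.7 and 19.997 CPM in Has2+/- lungs, against 24.02, 28.4, 28.1, 28.5 and 26.8 CPM in WT lungs (log2 fold change -0.39, SE 0.15, unadjusted p = 0.01401). In both, 1 Has2+/- library reached into the WT range. Without WT library 2, 25 of 39 cell cycle genes were below 0 with a median of -0.06, and without Has2+/- library 9 all 39 were below 0 with a median of -0.47. In OVA lungs 34 of the 39 were above 0 with a median of 0.27, 3 of them at that p. The summed CPM of the cell cycle list there was highest in Has2+/- library 18, at 1427.8. Has2+/- libraries 16 and 17, at 1061 and 968.07, were also above every WT OVA library, of which the highest had 899.49. Has2+/- library 15 lay inside the WT OVA range and library 19 below it. No fit left library 18 out, so how far the OVA median rests on it was not tested.

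Heat shock genes encode chaperones that bind unfolded proteins and are switched on together by the factor Hsf1. Of 23 tested, 21 were below 0 (48.6% of all genes) and 2 above, the median was -0.18, and 5 were lower (3.06%) and 0 higher at an unadjusted p under 0.05. Hspa1a and its twin Hspa1b encode the inducible Hsp70. Their promoters and that of Hspb1, the small chaperone Hsp27, are shown because the GAANNTTC motif, the core that heat shock elements repeat, occurs in each. They are the 250 bases before the start in RefSeq, on GRCm38.p6 and read on the strand of the gene, with every match to the motif in capitals. The motif is its own reverse complement, so a single search covers both strands.
Hspa1a, chr17:34972157-34972406, minus strand: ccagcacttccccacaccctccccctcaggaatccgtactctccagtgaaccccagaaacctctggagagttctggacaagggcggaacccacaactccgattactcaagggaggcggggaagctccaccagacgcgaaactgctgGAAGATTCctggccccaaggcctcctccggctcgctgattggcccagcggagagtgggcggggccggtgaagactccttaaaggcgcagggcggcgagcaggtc
Hspa1b, chr17:34959239-34959488, minus strand: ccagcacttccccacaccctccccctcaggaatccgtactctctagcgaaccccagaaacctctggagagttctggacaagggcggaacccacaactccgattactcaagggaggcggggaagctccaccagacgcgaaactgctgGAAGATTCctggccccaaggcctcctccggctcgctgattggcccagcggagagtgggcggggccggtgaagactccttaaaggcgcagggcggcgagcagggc
Hspb1, chr5:135887669-135887918, plus strand: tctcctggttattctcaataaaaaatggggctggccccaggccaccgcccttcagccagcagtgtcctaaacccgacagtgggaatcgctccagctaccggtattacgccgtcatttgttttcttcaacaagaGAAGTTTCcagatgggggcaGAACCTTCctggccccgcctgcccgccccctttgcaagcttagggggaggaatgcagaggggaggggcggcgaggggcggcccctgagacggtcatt
Counting a gene if any of its windows holds the motif, it was in 6 of the 18 heat shock genes with a promoter in the table, against 7.73% of 27025 genes in all. It was in 6.69% of 32817 single windows. The windows of Dnajb1 and Bag3 hold 0 matches, as does that of Hspd1 nearest the start in the count table. These letters are a description and mark no site. The windows of Hspa1a and Hspa1b differ at 3 of 250 positions, and the genes are near-identical copies, so reads of the pair may have been divided between them and their separate values are uncertain.

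Hspa1a had 13.4, 7.11, 13.5 and 17.8 CPM in Has2+/- lungs, against 10.6, 65.9, 43.1, 89.3 and 31.7 CPM in WT lungs (log2 fold change -1.89, SE 0.58, unadjusted p = 0.00405, edgeR's adjusted p = 0.565). Hspa1b had 134, 40.998, 54.5 and 69.8 CPM in Has2+/- lungs, against 28.6, 237, 192, 373 and 270.5 CPM in WT lungs (log2 fold change -1.55, SE 0.70, unadjusted p = 0.0396). Summed over the pair the values were 147, 48.1, 68.01 and 87.6 CPM in Has2+/- lungs, against 39.2, 303, 235, 463 and 302 CPM in WT lungs (exact permutation test, two-sided, p = 0.0794). WT library 1 was the lowest of all 9, and the other 4 WT libraries were above every Has2+/- library. Dnajb1, an Hsp40 partner of Hsp70, had 93.9, 61.4, 81.2 and 84.99 CPM in Has2+/- lungs, against 71.1, 171, 138, 158 and 94.995 CPM in WT lungs (log2 fold change -0.65, SE 0.25, unadjusted p = 0.0181). Bag3, an Hsp70 co-factor, had 118, 86.3, 88.6 and 98.7 CPM in Has2+/- lungs, against 74.3, 139.8, 139.6, 182 and 134 CPM in WT lungs (log2 fold change -0.45, SE 0.20, unadjusted p = 0.0383). Both showed the same low WT library 1, inside or below the Has2+/- range. Hspb1, with 2 matches in its window, had 318, 216, 50.3 and 44.99 CPM in Has2+/- lungs, against 50.8, 131, 135, 221 and 260.2 CPM in WT lungs (log2 fold change -0.01), where Has2+/- libraries 6 and 7 were high and 8 and 9 low. Without Has2+/- library 8 the median of the list was -0.03, and without library 6 it was -0.34. The median was 0.10 with 13 of 23 above 0 without libraries 8 and 9, and -0.56 with all 23 below 0 without libraries 6 and 7. In the OVA lungs Hspa1a had 6.25, 4.26, 3.85, 1.57 and 1.73 CPM in Has2+/- mice, against 2.98, 26.9, 32.4, 79.99 and 28.8 CPM in WT mice, so that 4 of 5 WT libraries were again above every Has2+/- library (log2 fold change -3.27, edgeR's adjusted p = 0.117). Dnajb1 there had a log2 fold change of -1.29 (edgeR's adjusted p = 0.115).

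**Figure D4:**
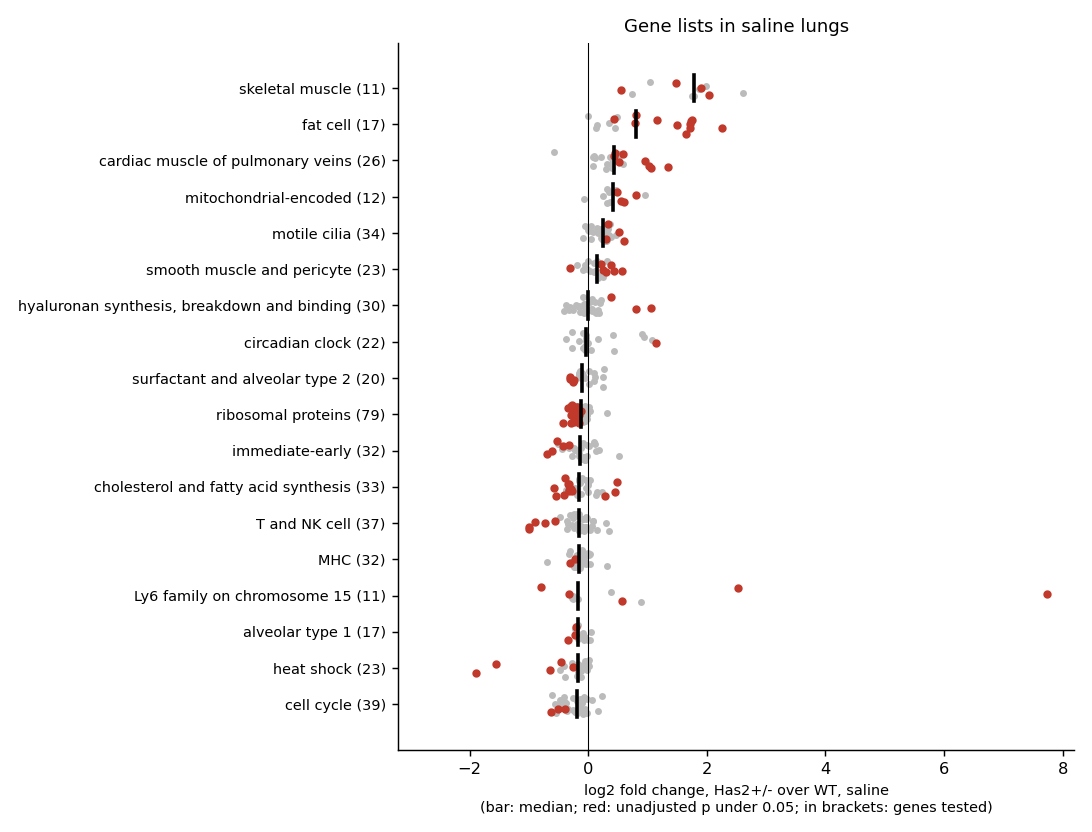
Log2 fold change of Has2+/- over WT saline lungs for every tested gene of 18 lists, with the median as a bar and genes at an unadjusted p under 0.05 in red. Medians ran from -0.19 for cell cycle genes to 1.79 for skeletal muscle genes, and most lists lay within 0.30 of 0.

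Alveolar lists had medians a little below 0. Of 17 tested genes of type 1 alveolar cells, the thin cells of gas exchange, 15 were below 0 (median -0.17, 3 lower at an unadjusted p under 0.05), where 48.6% of all genes were below 0 and 3.06% lower at that p. Without Has2+/- library 9 the median was -0.08 with 12 below 0 and 1 lower at that p. Pdpn, podoplanin of these cells, had 118, 107, 131 and 98.2 CPM in Has2+/- lungs, against 144, 145, 143, 142 and 142 CPM in WT lungs (log2 fold change -0.33, SE 0.10, unadjusted p = 0.003297) and did not overlap. Of 20 genes of type 2 cells, which make surfactant, 12 were below 0 (median -0.10, 4 lower), and without library 9 the median was -0.08 with 3 lower. Napsa, a protease that processes surfactant protein B, had 109.8, 101, 125 and 95.6 CPM in Has2+/- lungs, against 141, 129, 139, 137 and 120.04 CPM in WT lungs (log2 fold change -0.30, SE 0.09, unadjusted p = 0.00266), and Has2+/- library 8 was inside the WT range. Sftpc, surfactant protein C, had 8962, 7493, 8472 and 6151 CPM in Has2+/- lungs, against 9389, 9402, 10084, 8883 and 8794 CPM in WT lungs (log2 fold change -0.26, SE 0.11, unadjusted p = 0.0246), with library 6 inside it. Has2+/- library 9 had the lowest value for Pdpn, Napsa and Sftpc, as it did for the endothelial gene Pecam1, and the highest for the airway gene Scgb1a1.

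Of 34 tested genes of motile cilia, which move mucus out of the airway, 32 were above 0 (51.4% of all genes), with a median of 0.26 and 4 higher at an unadjusted p under 0.05 (3.88%). The summed CPM was 1246, 1251, 1405 and 2122 CPM in Has2+/- libraries 6 to 9, against 1425, 1404, 1383, 1309 and 1289 CPM in WT libraries 1 to 5. Spag17, of the ciliary central pair, had 15.8, 22.1, 22.4 and 47.4 CPM in Has2+/- lungs, against 18.5, 17.5, 20.4, 19.3 and 17.2 CPM in WT lungs (log2 fold change 0.52, SE 0.21, unadjusted p = 0.0217). Dnah9, an outer arm dynein, had 87.1, 92.1, 99.9 and 179.5 CPM in Has2+/- lungs, against 101, 98.4, 84.2, 87.04 and 83.7 CPM in WT lungs (log2 fold change 0.33, SE 0.15, unadjusted p = 0.0409). Library 9 was the highest for both, and without it 13 of 34 cilia genes were above 0, the median was -0.03 and 0 were higher at that p. The defining ciliated gene Foxj1 had 76.3, 52.2, 81.4 and 159.5 CPM in Has2+/- lungs, against 74.4, 116, 98.9, 96.2 and 92.2 CPM in WT lungs (log2 fold change -0.06).

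Lists of muscle and of the mitochondrial genome followed single libraries as well. Of 11 tested skeletal muscle genes all were above 0 (median 1.79, 4 at an unadjusted p under 0.05). Over all genes tested, 51.4% were above 0 and 3.88% were higher at that p. Myh4, fast myosin, had 0.291, 141, 0.334 and 0.652 CPM in Has2+/- lungs, against 6.05, 3.17, 4.55, 6.65 and 29.3 CPM in WT lungs. Without Has2+/- library 7 the median of the list was -1.73, with 10 of 11 below 0 and 5 lower at that p, and without WT library 5 it was 2.72 with 8 higher. Of 26 genes of cardiac muscle, which sheathes the pulmonary veins of mice, 25 were above 0 (median 0.44, 8 at that p), and without library 7 the median was 0.21 with 0 at that p, as it was 0.33 with 0 at that p without WT library 3. The cardiac markers Myh6 and Nppa had log2 fold changes of 0.30 and -0.58. Of 12 mitochondrial-encoded genes, 11 were above 0 (median 0.42, 4 at that p), with a summed CPM of 6742, 9918, 6197 and 12294 CPM in Has2+/- libraries 6 to 9, against 7332, 6794, 6364, 7328 and 6829 CPM in WT libraries 1 to 5. Libraries 7 and 9 were the high ones. Without Has2+/- library 9 the median was 0.14 with 1 gene at that p, and without WT library 2 it was 0.34 with 0 genes.

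The median of smooth muscle genes did not rest on 1 Has2+/- library. Of 23 tested, 16 were above 0 (51.4% of all genes), with a median of 0.14. At an unadjusted p under 0.05, 6 were higher (3.88% of all genes) and 1 lower (3.06%). The median lay between 0.13 and 0.20 without any 1 of the Has2+/- libraries. The summed CPM was 3832, 3976, 4034 and 3888 in Has2+/- libraries 6 to 9. In WT libraries 1 to 5 it was 3879.5, 3446, 3846, 3874 and 3860. WT library 2 stood low, and Has2+/- library 6 lay inside the WT range. Synpo2, an actin-binding protein of smooth muscle, had 99.6, 101, 98.6 and 126.1 CPM in Has2+/- lungs, against 87.8, 85.7, 79.5, 78.7 and 97.7 CPM in WT lungs (log2 fold change 0.30, SE 0.08, unadjusted p = 0.000809) and did not overlap. Cnn1, calponin, had 48.4, 45.3, 41.8 and 64.3 CPM in Has2+/- lungs, against 31.5, 36.3, 45.3, 29.9 and 41.1 CPM in WT lungs (log2 fold change 0.43, SE 0.14, unadjusted p = 0.00457), with Has2+/- library 8 inside the WT range. Acta2, smooth muscle actin, had 139.8, 160.4, 143 and 204 CPM in Has2+/- lungs, against 142, 140.2, 131, 121 and 143 CPM in WT lungs (log2 fold change 0.25, SE 0.10, unadjusted p = 0.0175). In OVA lungs the median of the list was -0.12, and Synpo2 stood on the other side of 0 there (log2 fold change -0.19, unadjusted p = 0.0152).

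Lipid synthesis genes pointed both ways. Of 33 tested genes of cholesterol and fatty acid synthesis, 25 were below 0 (48.6% of all genes) and 8 above (median -0.15). At an unadjusted p under 0.05, 10 were lower (3.06% of all genes) and 3 higher (3.88%). Fdps, which makes farnesyl pyrophosphate, had 13.7, 13.7, 13.5 and 10.9 CPM in Has2+/- lungs, against 21.5, 22.04, 20.4, 16.2 and 17.3 CPM in WT lungs (log2 fold change -0.58, SE 0.18, unadjusted p = 0.00378). Mvk, mevalonate kinase, had 16.4, 16.3, 18.4 and 19.3 CPM in Has2+/- lungs, against 24.8, 23.8, 25.3, 21.2 and 21.6 CPM in WT lungs (log2 fold change -0.41, SE 0.13, unadjusted p = 0.00494). Fads1, a fatty acid desaturase, had 132, 135, 150.2 and 122 CPM in Has2+/- lungs, against 174, 162, 159, 167 and 151 CPM in WT lungs (log2 fold change -0.27, SE 0.08, unadjusted p = 0.00215). These 3 had every Has2+/- library below every WT library. Me1, malic enzyme, which supplies NADPH for fatty acid synthesis in fat and liver, had 79.4, 91.7, 59.7 and 68.5 CPM in Has2+/- lungs, against 58.9, 55.2, 47.8, 46.1 and 57.2 CPM in WT lungs (log2 fold change 0.49, SE 0.13, unadjusted p = 0.00118) and was above in every Has2+/- library. In OVA lungs Me1 stood on the other side of 0 (log2 fold change -0.28, unadjusted p = 0.0331). With the mean of immediate-early genes as a covariate the median of the list was 0.01, against -0.15 without it, and without WT library 1 it was -0.04 with 6 genes lower at that p.

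Of 32 tested genes of the MHC, which present antigen, 27 were below 0 (48.6% of all genes), with a median of -0.15. At an unadjusted p under 0.05, 2 were lower (3.06% of all genes). H2-K1, a class I heavy chain, had 296, 243, 317 and 349.5 CPM in Has2+/- lungs, against 308, 531, 303, 334 and 377 CPM in WT lungs (log2 fold change -0.30, SE 0.13, unadjusted p = 0.0347). WT library 2 was high for it, as for the summed list (3120 to 5331 CPM in Has2+/- libraries, against 6923 CPM in WT library 2 and 3835 to 4485 CPM in the other WT libraries). Without WT library 2 the median was 0.02 with 21 of 32 above 0. The list was also divided by pair, at -0.51 without Has2+/- libraries 8 and 9 and 0.15 without 6 and 7.

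Immediate-early genes, which respond within minutes to stimuli including handling, were mostly below 0. Of 32 tested, 25 were below 0 (48.6% of all genes), with a median of -0.14. At an unadjusted p under 0.05, 5 were lower (3.06% of all genes) and 0 higher (3.88%). The median lay between -0.17 and -0.12 without either pair of Has2+/- libraries. Without WT library 1 it was -0.04, with 19 of 32 below 0. Egr2, a zinc finger factor, had 8.43, 7.49, 6.85 and 9.13 CPM in Has2+/- lungs, against 15.95, 16.9, 13.2, 7.69 and 10.4 CPM in WT lungs (log2 fold change -0.69, SE 0.21, unadjusted p = 0.00315), with WT library 4 inside the Has2+/- range. Zfp36, which speeds decay of cytokine mRNA, had 102, 99.97, 107 and 92.4 CPM in Has2+/- lungs, against 123, 127, 136, 109 and 134 CPM in WT lungs (log2 fold change -0.32, SE 0.10, unadjusted p = 0.00316) and did not overlap. In OVA lungs 25 of the 32 were again below 0, with a median of -0.20 and 7 lower at that p.

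The clock genes show how far Has2+/- libraries differed among themselves. Dbp, an output factor of the clock that peaks in the light phase in mouse tissues, had 13.96, 10.7, 192 and 197 CPM in Has2+/- lungs, against 116, 48.3, 42.5, 36.4 and 24.7 CPM in WT lungs (log2 fold change 0.94, SE 0.71, unadjusted p = 0.203). Arntl, the clock activator Bmal1, which peaks in the opposite phase, had 20.6, 26.02, 6.52 and 5.87 CPM in Has2+/- lungs, against 3.12, 9.17, 4.15, 7.69 and 9.45 CPM in WT lungs (log2 fold change 1.14, SE 0.44, unadjusted p = 0.01696). Nr1d1, the repressor Rev-erb alpha, had 31.8, 17.97, 308 and 297 CPM in Has2+/- lungs, against 121, 72.99, 73.7, 68.97 and 50.3 CPM in WT lungs (log2 fold change 1.08, SE 0.55, unadjusted p = 0.0649). Has2+/- libraries 8 and 9 were high in Dbp and Nr1d1, and libraries 6 and 7 high in Arntl. The WT libraries lay between for Dbp and Nr1d1, so the genotype difference depended on which Has2+/- libraries were taken: for Nr1d1 it was 1.08 with all 4 and -1.61 without 8 and 9. Of the 22 clock genes tested, 14 were below 0 (48.6% of all genes) and the median was -0.04. The hour at which each lung was taken is not given in the sources used here, and its part in the other results was not tested beyond the fits that leave out each pair or carry the clock component as a covariate. With that covariate edgeR called 1 gene, Psca (adjusted p = 0.0035).

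Each pair of Has2+/- libraries gave its own calls. Without libraries 8 and 9, which leaves libraries 6 and 7, edgeR called 12 genes, Acaca, Acadm, Bin2, Ccl5, Ephx2, Fabp4, Il2rb, Lpl, Nup210, Selplg, Spn and Tgm3. Lpl, Fabp4 and Acadm act in fatty acid uptake and use, and Ccl5, Il2rb, Spn and Selplg in lymphocytes. Without libraries 6 and 7 it called 8, Fam107a, Lonrf3, Mgp, Prkca, Rgcc, Serinc3, Traf3ip3 and Tsc22d3. The 2 sets shared 0 genes.

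The OVA lungs are other mice of the same genotypes, with no library in common with the saline comparison. edgeR called 0 of 14495 genes there too (0%), with 1120 (7.73%) at an unadjusted p under 0.05. Of all genes, 58.1% had the same sign of the genotype effect in saline and OVA lungs, and of the 1006 genes at an unadjusted p under 0.05 in saline lungs 701 (69.7%) did. Of those 1006, 117 (11.6%) had an unadjusted p under 0.05 with the same sign in OVA lungs and 21 (2.09%) with the opposite sign. Of the 25 genes of smallest p, 16 had the same sign, and Psca and Luc7l3 were the 2 at that p. The test of the difference between the 2 genotype effects (the interaction) passed an adjusted p under 0.05 for 0 genes (0%) and an unadjusted p under 0.05 for 594 (4.1%).

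**Figure D5:**
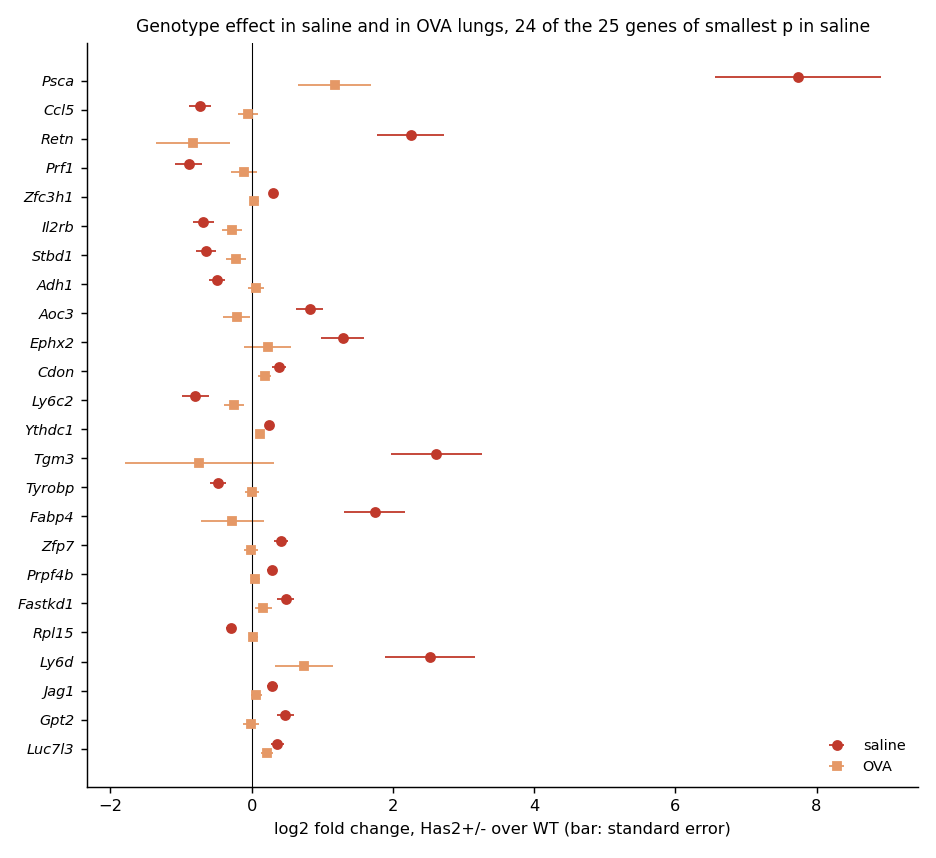
Log2 fold change of Has2+/- over WT, with its standard error, in saline lungs (red circles) and in OVA lungs (orange squares) for 24 of the 25 genes of smallest p in saline lungs, ordered by p. In 15 of the 24 both effects had the same sign, and those of Retn, Fabp4 and Tgm3 lay on opposite sides of 0.

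In OVA lungs Psca reads numbered 29, 22, 24, 22 and 29 in Has2+/- libraries, against 1, 1, 17, 29 and 3 in WT libraries (log2 fold change 1.17, unadjusted p = 0.0389). WT OVA libraries 12 and 13 stood in the range of the Has2+/- libraries, and 10, 11 and 14 at 1 to 3 reads. Ly6d had 69, 59, 61, 56 and 37 reads in Has2+/- OVA libraries, against 7, 23, 42, 76 and 7 reads in WT OVA libraries, and the 2 highest WT libraries were again 13 and 12. Ly6e had 355, 343, 345, 398 and 316 CPM in Has2+/- OVA lungs, against 192, 183, 366, 354 and 232 CPM in WT mice of that treatment (log2 fold change 0.40, unadjusted p = 0.0169), with the same 2 libraries high. Ly6c2 did not share this pattern, at 43.9, 55.7, 62.5, 49.6 and 32.5 CPM in Has2+/- OVA lungs, against 53.1, 66.4, 44.3, 65.3 and 60.7 CPM in WT OVA lungs. For the Psca difference between saline and OVA lungs the interaction had an unadjusted p of 0.000482 and an adjusted p of 0.99987. Has2 reads there numbered 4, 3, 5, 9 and 4 in Has2+/- mice, against 7, 10, 5, 9 and 2 in WT mice. For Hspa1a, WT OVA libraries 11, 12, 13 and 14 had 26.9, 32.4, 79.99 and 28.8 CPM, above every Has2+/- OVA library. WT OVA library 10, at 2.98 CPM, was not.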

How the data were processed

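RNA of whole lung was sequenced by the authors as paired reads of 36 bases, mapped to mm10 and counted per gene in CLC Genomics Workbench. The deposited counts are whole numbers without normalization. The authors' labels name a kit that depletes ribosomal RNA and their design text a kit for mRNA, which was not resolved. 38 further columns of scaled values of these libraries, and columns of the authors' own fold changes and p-values, were not used. Columns give the group but not the animal number of the labels. Nothing pairs samples, and p-values measure the spread between samples. In edgeR's main fit that spread was estimated over all 19 libraries, those of OVA lungs included.

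Of 49585 genes, 14495 passed filterByExpr (10 counts, 15 in total, share 0.7). edgeR 4.0.16 in R 4.3.3 fitted a mean for each of 4 groups in 19 libraries with TMM factors, and quasi-likelihood tests were two-sided and adjusted by Benjamini and Hochberg over all genes tested. CPM are counts over library size times TMM factor. Each SE is the size of a log2 fold change over the root of its F. Has2 and other low genes were compared by exact permutation. The fit was tested on simulated data. Start positions were moved by 1 to count from 1. Sequences are RefSeq's on GRCm38.p6. Of 11 genes looked up, 6 had a promoter, and Psca, Ly6d, Ly6e, Has2 and Cryab did not.

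The genes described are the 25 of smallest p without antigen receptor segments and predicted genes, in each list described at most 4 genes ranked by p and the hyaluronan synthases, and the other genes named were chosen after their values were seen. Counts over the 25 include 1 gene that is not reported here. Members and lists were chosen with earlier results of these data known. Alternatives were RLE factors, no filter, 20 counts in 4 libraries, the 9 saline libraries alone, DESeq2 1.42.0, an adjusted p under 0.05, each library left out, libraries 8 and 9 left out, and a clock or immediate-early covariate. Leaving out libraries 6 and 7 and a fat covariate were added after seeing the data.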

Additional observations from a re-analysis of the deposited data

Results flagged for a closer look

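Of 226 groups of values checked, over the named genes and the sums of the lists described, 23 held 1 library far from the others by Dixon's criterion. Chance alone flags about 1 in 20 groups, but these groups share libraries and genes and are not independent. WT library 2 gave 6 of them, Has2+/- libraries 7 and 9 gave 5 each, WT library 5 gave 4, Has2+/- library 8 gave 2 and WT library 4 gave 1.

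In Has2+/- library 7 the muscle genes Mybpc2 (39.9 CPM, against a median of 4.18 in the other 3), Atp2a1 (233 against 7.85), Mylpf (54.9 against 0.869) and Ttn (3809 against 782) were high, as was the sum of the skeletal muscle list (1687 against 62.5). WT library 5 was high for Atp2a1 (52.1 against 5.77), Trdn (6.14 against 1.63) and that sum (389 against 61.9), and low for Tgfb1 (96.9 against 109 CPM).

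Has2+/- library 9 was high for the ciliary gene Dnah9 (180 against 92.1 CPM) and the smooth muscle gene Synpo2 (126.1 against 99.6), and low for Emp2 (634 against 847), Cldn18 (359 against 506) and Fdps (10.9 against 13.7). Has2+/- library 8 was low for Retn (3.17 against 15.4 CPM) and high for Prf1 (12.7 against 8.69).

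WT library 2 was high for Retn (4.58 against 2.14 CPM), Mcm6 (21.9 against 16.2), Tapbp (380 against 294) and the sum of the MHC list (6923 against 3985), and low for Prf1 (11.3 against 20.1) and the sum of smooth muscle genes (3446 against 3867). WT library 4 was low for Jag1 (98.5 against 113 CPM).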

How the results depend on the processing

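No gene was called with RLE factors, with 20 counts in 4 libraries, at an adjusted p under 0.05, with the immediate-early or fat covariate, or without any 1 of the 9 libraries. 1 was called (Psca, and so 1 on chromosome 15 and 1 of the genes in lists) with no filter, with the 9 saline libraries only, with DESeq2 and with the clock component, 12 (2 on chromosome 15, 4 in lists) without libraries 8 and 9, and 8 (0 and 1) without libraries 6 and 7. The Has2 difference of 0.431 CPM stayed positive and past no threshold.

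Single genes turned sign as follows on the log2 scale. With the fat covariate these were Tgm3 (-0.51), Fabp4 (-0.032), Atp2a1 (-0.68), Mylpf (-0.96), Ttn (-0.14), Npas2 (-1.40), Has3 (-0.032) and Tgfb1 (0.0028), of which Fabp4 is itself in the covariate's list. Without libraries 6 and 7 they were Atp2a1 (-1.05), Mylpf (-1.73), Arntl (-0.13), Npas2 (-1.78) and Cd44 (0.063), and without libraries 8 and 9 Dnah9 (-0.023), Nr1d1 (-1.61), Has1 (-0.035) and Tlr4 (0.037). Cd44 stood at 0.0065 with the immediate-early covariate. With 1 library left out, values ran from -0.068 (without Has2+/- library 7) to 1.88 for Mybpc2, from -1.01 to 3.48 for Atp2a1 and from -1.93 to 2.65 for Mylpf (each lowest without library 7 and highest without WT library 5), from -0.0013 (without WT library 3) to 0.12 for Has3, from -0.16 to 0.046 (without WT library 2) for Cd44, and from -0.19 to 0.019 (without Has2+/- library 8) for Tlr4. Of the other gene values, 1736 kept their sign and side of the threshold and 9 passed it. The cause of these changes was not tested beyond the libraries and covariates named. Across these settings 322 list medians stayed within the spread between libraries and 20 moved past it.

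No paired analysis was possible because the columns carry no replicate number of the labels. 4 against 5 libraries of 4446534 to 7048676 counts limit genes of few reads, such as Has2.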

Other observations

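Lars2, which encodes the mitochondrial leucyl-tRNA synthetase, was chosen after its values were seen. It had 62.5, 69.6, 38.1 and 69.3 CPM in Has2+/- lungs, against 97.7, 61.7, 66.2, 3249 and 51.99 CPM in WT lungs, or 15641 reads in WT library 4. The other 8 libraries ran from 38.1 to 97.7 CPM, and the log2 fold change of -3.56 (edgeR's adjusted p = 0.546) rests on that library.

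Red cell genes were low in Has2+/- library 9. Hba-a1, alpha globin, had 549, 535, 518 and 135 CPM in Has2+/- lungs, against 517, 587, 693, 742 and 694 CPM in WT lungs. All 10 tested genes of the red cell list were below 0 (48.6% of all genes), with a median of -0.43 and 0 at an unadjusted p under 0.05. Without library 9 the median was -0.17 with 9 of 10 below 0. Cyp2e1, a cytochrome P450 of liver and fat chosen after its values were seen, had 94.6, 88.2, 11.2 and 40.2 CPM in Has2+/- lungs, against 19.1, 21.3, 10.7, 12.7 and 15.1 CPM in WT lungs (log2 fold change 1.89, SE 0.50, unadjusted p = 0.00115). As for Retn, Fabp4 and Adipoq, Has2+/- libraries 6, 7 and 9 were above every WT library and library 8 was not.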
